A study of Ganoderma lucidum with 6 samples.

Results

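The 1,3-beta-glucan synthases and chitin synthases of Ganoderma lucidum were examined, which are the enzymes that polymerise the main structural chains of the fungal cell wall. They were taken as the genes whose KOG description (a name from a catalogue of eukaryotic gene families) contains 1,3-beta-glucan synthase or chitin synthase. This gave 9 of the 16113 genes in the table, 3 described as 1,3-beta-glucan synthases and 6 as chitin synthases. Wild-type mycelia of this wood-decaying basidiomycete were sampled at day 3 with NaNO3 in 3 libraries and with (NH4)2SO4 in 3 libraries, here called nitrate and ammonium. Salt concentrations and the rest of the medium are not given in the labels used here. The salts also differ in sodium and sulfate, so the nitrogen form and the counter-ion cannot be told apart. The series title concerns polysaccharide export and silencing of the transcription factor AreA, and none of the 6 libraries is labelled as silenced.

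A 1,3-beta-glucan synthase is a large plasma membrane enzyme that joins glucose from UDP-glucose into 1,3-beta-glucan, the most abundant wall fibre of many fungi. A chitin synthase likewise joins N-acetylglucosamine from UDP-N-acetylglucosamine into chitin, a stiff fibre laid down at growing tips and at cross walls. Filamentous fungi carry several chitin synthase genes of different classes, and some classes bear a myosin-like motor domain fused to the enzyme.

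Levels are FPKM as deposited (fragments scaled to gene length and library size), which can be compared between genes because they are per length. Each fold change is the log2 of nitrate over ammonium from edgeR's quasi-likelihood test on the counts, and a gene was taken as changed at a Benjamini-Hochberg adjusted p under 0.05 over all 11993 tested genes. Total gene counts ranged from 19979528 to 24767602 in nitrate libraries and from 24059697 to 27604895 in ammonium libraries. The labels do not state whether replicates were separate cultures, and p-values then cover only the spread among these libraries, which may be technical. Within groups the libraries were not alike. One axis held 64.5% of the variance of log2 levels around the group means over 11307 genes, with nitrate replicate 1 at one end (loading 0.59) and ammonium replicate 1 at the other (loading -0.56). Replicates 2 and 3 loaded at -0.21 and -0.37 in nitrate and at 0.29 and 0.27 in ammonium. Deviations from a group mean balance within the group, so these signs partly follow from those of replicate 1. Results are therefore also given without replicate 1 of both groups, a choice made after seeing the data. In bulk RNA, fewer growing hyphae and less transcript per hypha cannot be told apart.

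All 9 genes passed the filter on low counts. On nitrate, 1 glucan synthase gene, GL15036-G, was higher, 1 chitin synthase gene, GL28060-G, was lower, and the other 7 did not pass the test. Of all tested genes 15.6% were called, 7.50% higher and 8.13% lower, so the 2 calls among 9 are near the background. The median log2 fold change was 0.30 over the 9 genes and 0.010 over all tested genes. The 0.30 is the value of GL24465-G, which did not pass and was at -0.17 without nitrate replicate 1. Both called genes were the least abundant of the set: the other 7 held at least 98.9% of the summed FPKM of the 9 in every library.

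**Figure D1:**
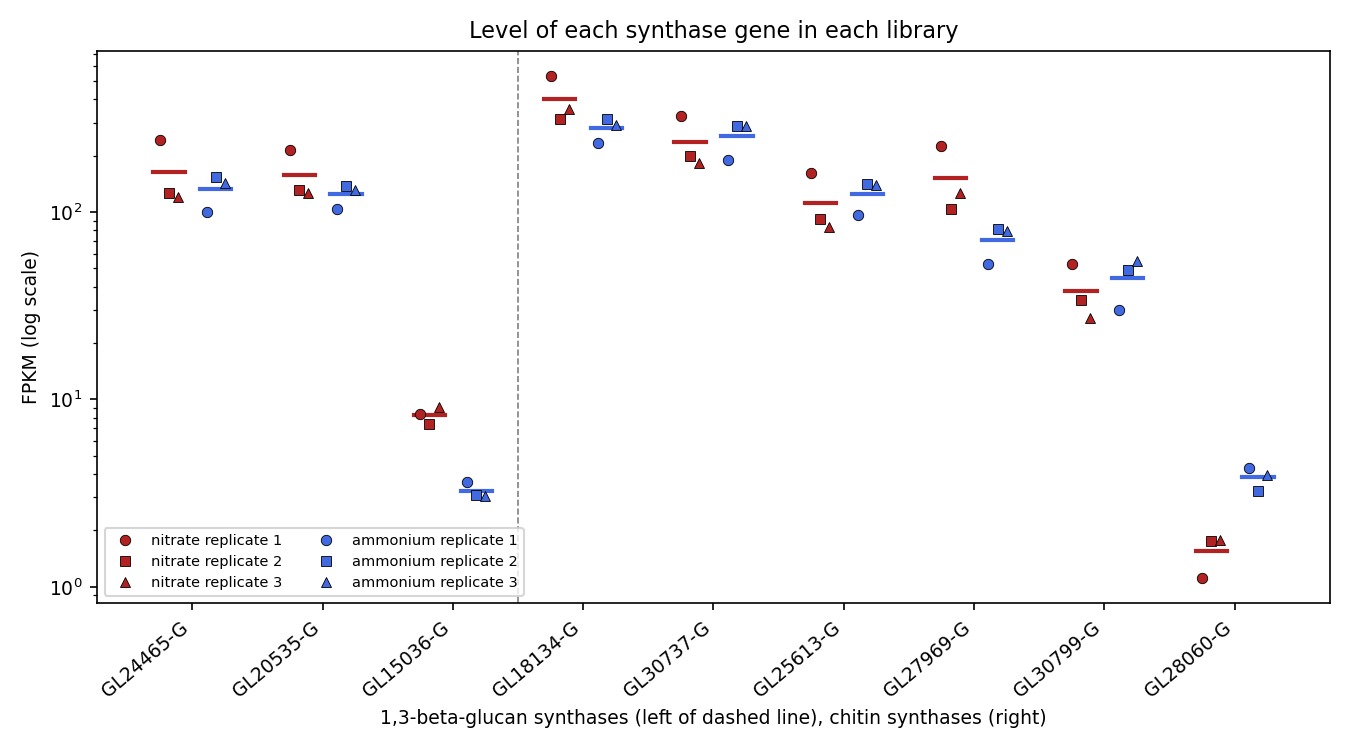
FPKM on a log axis of each of the 9 synthase genes, nitrate libraries (red) left of ammonium libraries (blue), with a marker shape per replicate and a line at each group mean. GL15036-G and GL28060-G are the rarest genes, and their groups are separate, as are those of GL27969-G.

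Of the 3 glucan synthase genes 2 were abundant. GL24465-G, on scaffold 4 at 152616 to 159110 in the authors' coordinates, had 242, 126 and 120.0 FPKM in nitrate replicates 1 to 3, against 100.4, 154 and 143 FPKM in ammonium replicates 1 to 3. GL20535-G, on scaffold 10 at 1248948 to 1255895, had 213, 131 and 127 FPKM in nitrate, against 104, 138 and 131 FPKM in ammonium. In both genes nitrate replicate 1 was the highest library, ammonium replicate 1 the lowest, and the groups overlapped. Their log2 fold changes were 0.30 ± 0.35 (SE, n = 3 and 3, adjusted p = 0.606, 95% interval -0.51 to 1.11) and 0.34 ± 0.29 (adjusted p = 0.464, 95% interval -0.33 to 1.00). The direction of both turned without nitrate replicate 1, at -0.17 and -0.013. The level of GL24465-G over that of GL20535-G stayed between 0.947 and 1.14 in nitrate libraries and between 0.97 and 1.12 in ammonium libraries. How the authors' counting treated reads that similar copies share is not given in the sources used here, so the split between such genes is uncertain.

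The third glucan synthase gene, GL15036-G, was rarer and rose on nitrate. It lies on scaffold 10 at 1159533 to 1161308, 87639 bases from GL20535-G, and its model spans 1776 bases, where GL24465-G spans 6495 and GL20535-G 6948. Its level was 8.35, 7.37 and 9.05 FPKM in nitrate replicates 1 to 3, against 3.64, 3.10 and 3.03 FPKM in ammonium replicates 1 to 3, from 318, 289 and 287 counts on nitrate and 140, 130 and 131 on ammonium. Every nitrate library was above every ammonium library. Groups without overlap, in either direction, were seen in 3 of the 9 genes and in 37.0% of all tested genes. The log2 fold change was 1.33 ± 0.19 (SE, adjusted p = 0.00413, edgeR), and it passed in each of the 6 fits without 1 library (log2 fold change 1.27 to 1.40) and without replicate 1 of both groups (1.33, adjusted p = 0.000484). Its part of the summed glucan synthase FPKM was 1.80%, 2.79% and 3.54% in nitrate libraries and 1.75%, 1.05% and 1.09% in ammonium libraries. So short a model is much under the length of the other glucan synthase genes, and whether it is a whole gene was not tested.

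GL15036-G has a neighbour with glucan synthase annotation that the KOG rule did not take. GL20577-G, a model of 348 bases on the same strand, ends 830 bases before GL15036-G begins, has no KOG description, and carries the GO terms of 1,3-beta-glucan synthase activity and of the synthase complex. It had 4.48, 3.21 and 4.18 FPKM in nitrate, against 1.96, 1.48 and 1.20 FPKM in ammonium (log2 fold change 1.28 ± 0.34, adjusted p = 0.0390, edgeR), with no overlap between groups. Its call held without ammonium replicate 1 and was lost without nitrate replicate 1, 2 or 3 or ammonium replicate 2 or 3 (highest adjusted p = 0.139). The level of GL15036-G over that of GL20577-G was 1.86, 2.30 and 2.17 in nitrate libraries and 1.86, 2.10 and 2.52 in ammonium libraries, so the ratio overlapped between groups. GL20577-G rested on 37, 27 and 29 counts in nitrate and 17, 14 and 12 in ammonium, so these ratios are rough. Whether the 2 models belong to 1 transcript was not tested.

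Among the 6 chitin synthase genes 1 was lower on nitrate and none was higher, with a median log2 fold change of -0.13. The most abundant was GL18134-G, on scaffold 9 at 1489694 to 1493502, which carries GO terms for chitin synthesis and the plasma membrane. It had 532, 312 and 353 FPKM in nitrate, against 234, 313 and 290.0 FPKM in ammonium. Nitrate replicate 2 fell just under ammonium replicate 2, so the groups overlapped (log2 fold change 0.52 ± 0.28, SE, adjusted p = 0.249, 95% interval -0.13 to 1.16).

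GL30737-G, on scaffold 1 at 3740243 to 3743647, came next, at 325, 199 and 183 FPKM in nitrate, against 189, 287 and 288 FPKM in ammonium (log2 fold change -0.11 ± 0.32, adjusted p = 0.849). GL30799-G, on scaffold 1 at 4333550 to 4338028, had 52.7, 34.1 and 27.0 FPKM in nitrate, against 30.0, 49.1 and 54.8 FPKM in ammonium (-0.23 ± 0.34, adjusted p = 0.684). In both, nitrate replicate 1 resembled the higher ammonium libraries and ammonium replicate 1 the lower nitrate ones.

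GL27969-G, on scaffold 25 at 594058 to 598311, stood nearest to the threshold among the abundant genes. It had 226, 103 and 126 FPKM in nitrate, against 53.0, 81.3 and 78.7 FPKM in ammonium. Every nitrate library was above every ammonium library, but nitrate replicate 1 was far above the other 2, and the log2 fold change of 1.10 ± 0.36 (95% interval 0.27 to 1.93) did not pass (adjusted p = 0.0769, edgeR). It passed by DESeq2 (adjusted p = 0.0170), which called 19.4% of genes with a count, and in no fit without 1 library (adjusted p = 0.0632 to 0.174).

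Of the 6 chitin synthase genes 2 carry GO terms of the myosin complex and of motor activity, though their protein domains were not examined. The abundant one, GL25613-G, on scaffold 7 at 719655 to 723799, had 161, 92.2 and 82.8 FPKM in nitrate, against 96.9, 140.3 and 139 FPKM in ammonium (log2 fold change -0.16 ± 0.33, adjusted p = 0.788). The rare one, GL28060-G, on scaffold 27 at 547877 to 551736, fell on nitrate. It had 1.11, 1.75 and 1.78 FPKM in nitrate, against 4.32, 3.24 and 3.94 FPKM in ammonium, from 88, 142 and 117 counts on nitrate and 342, 280 and 351 on ammonium. All nitrate libraries were below all ammonium libraries (log2 fold change -1.32 ± 0.22, SE, adjusted p = 0.00765, edgeR). The call held in each of the 6 fits without 1 library (-1.42 to -1.17) and without replicate 1 of both groups (-1.11, adjusted p = 0.00133). Since the 2 called genes went opposite ways, their order turned. GL15036-G was 7.53, 4.21 and 5.07 times as abundant per length as GL28060-G in nitrate libraries, against 0.842, 0.958 and 0.77 times in ammonium libraries. The pair was picked by these calls, so the ratios only restate them.

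The 7 abundant genes shared a pattern within groups that did not follow the nitrogen source. In each of the 7, nitrate replicate 1 was the highest of the nitrate libraries and ammonium replicate 1 the lowest of the ammonium libraries, an arrangement that 21.6% of all tested genes had. GL28060-G showed the reverse, as did 37.8% of tested genes, and GL15036-G neither. Summed over the 3 glucan synthase genes the level was 463, 264 and 256 FPKM in nitrate, against 208, 296 and 277 FPKM in ammonium. Summed over the 6 chitin synthase genes it was 1299, 743 and 774 FPKM in nitrate, against 607, 874 and 854 FPKM in ammonium. Both sums overlapped between groups and moved together, since the chitin synthase sum was 2.81, 2.81 and 3.03 times the glucan synthase sum in nitrate libraries and 2.93, 2.96 and 3.08 times in ammonium libraries.

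**Figure D2:**
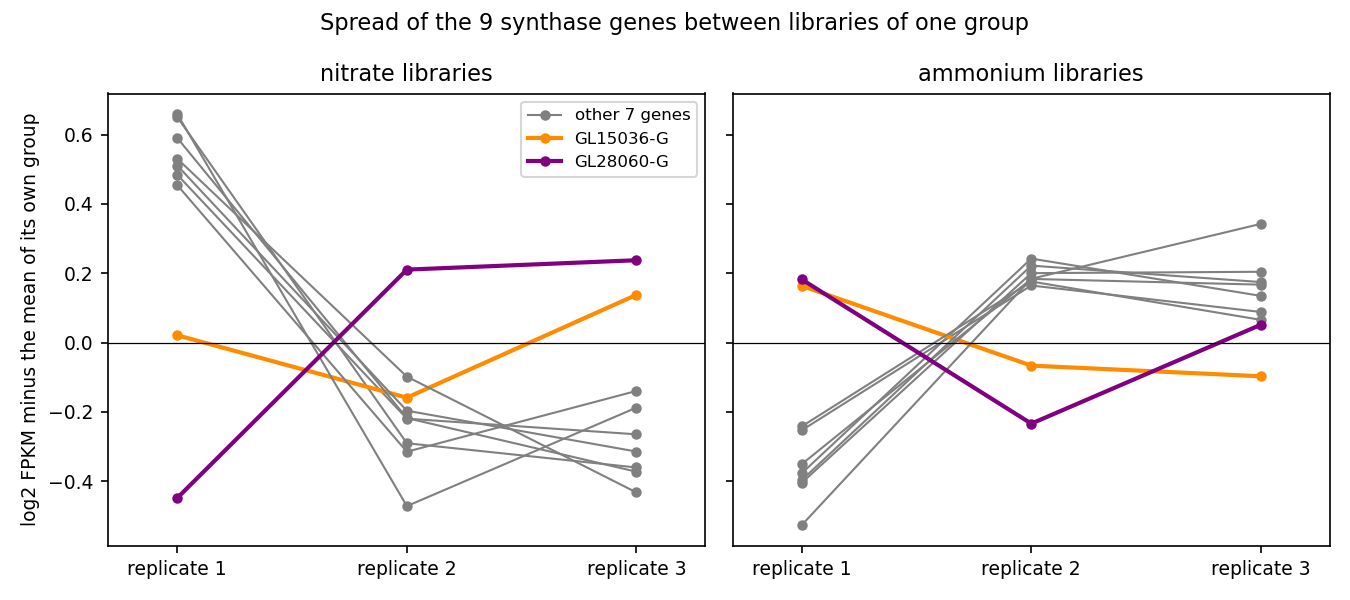
log2 FPKM of each of the 9 genes minus the mean of its own group, for nitrate libraries (left) and ammonium libraries (right), where lines only join the values of one gene. The 7 abundant genes (grey) are all above 0 in nitrate replicate 1 and all below 0 in ammonium replicate 1, GL28060-G (purple) runs the other way, and GL15036-G (orange) stays within 0.2 of 0.

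The make-up of the summed transcript of the 6 chitin synthase genes named by KOG separated the groups, while the sum did not. Other genes with the chitin synthase GO term, given below, are not in this sum. As a share of the summed chitin synthase FPKM, GL27969-G made up 17.4%, 13.9% and 16.3% in nitrate libraries, against 8.73%, 9.31% and 9.22% in ammonium libraries. GL18134-G made up 41.0%, 42.1% and 45.6% in nitrate, against 38.6%, 35.8% and 34.0% in ammonium. The shares of these 2 genes were higher on nitrate in every library, and those of the other 4 were lower in every library.

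GL30737-G held 25.0%, 26.8% and 23.7% in nitrate, against 31.1%, 32.8% and 33.7% in ammonium. GL25613-G held 12.4%, 12.4% and 10.7% in nitrate, against 16.0%, 16.1% and 16.2% in ammonium. GL30799-G held 4.06%, 4.59% and 3.50% in nitrate, against 4.94%, 5.62% and 6.42% in ammonium, and GL28060-G stayed under 1% throughout. All 6 shares thus had no overlap between groups. The same division by the chitin synthase sum left 23.2% of all tested genes without overlap, which is not a like background. The sum is made of these genes, and 5 of the 6 had its pattern within groups, so the division takes out spread that they share. Shares of one sum depend on each other, so these are not 6 separate results, and they are given as a description without a test.

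Put as ratios, which restate the shares for pairs picked from opposite ends, GL27969-G was 1.40, 1.12 and 1.52 times as abundant as GL25613-G in nitrate libraries, against 0.547, 0.58 and 0.568 times in ammonium libraries, so the order of these 2 genes differed between groups. Over GL30799-G the ratio of GL27969-G was 4.29, 3.03 and 4.65 in nitrate and 1.77, 1.66 and 1.44 in ammonium. In the mean over libraries, GL18134-G and then GL30737-G were the most abundant of the 9 in both groups, at 399 ± 117 and 236 ± 77.6 FPKM in nitrate and 279 ± 40.5 and 254 ± 56.9 FPKM in ammonium (SD, n = 3 each). GL24465-G, GL20535-G and GL27969-G followed on nitrate at 163 ± 68.7, 157 ± 48.6 and 152 ± 65.4 FPKM, neighbours that did not differ beyond their spread, while GL27969-G was at 71.0 ± 15.7 FPKM on ammonium, below GL25613-G at 125 ± 24.6 FPKM.

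**Figure D3:**
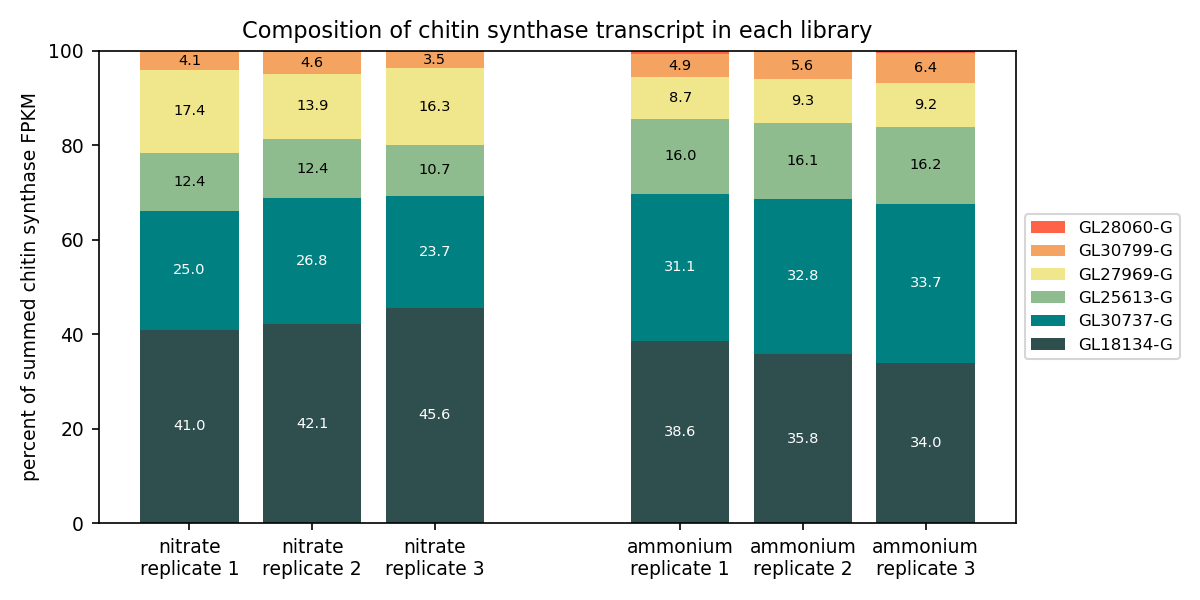
Percent of the summed FPKM of the 6 chitin synthase genes that each gene held, 1 stacked bar per library, nitrate libraries left and ammonium libraries right. GL27969-G (pale yellow) takes 13.9% to 17.4% in nitrate and 8.73% to 9.31% in ammonium, and GL30737-G (teal) takes less in every nitrate library.

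Without replicate 1 of both groups, 4 of the 5 abundant chitin synthase genes passed, each in the direction of its share, and GL18134-G, whose share was higher on nitrate, did not. The shares and this fit use the same libraries, so the match in direction is not a separate result. GL30799-G fell by 0.85 ± 0.17 on the log2 scale (SE, n = 2 and 2, adjusted p = 0.0018, edgeR), GL25613-G by 0.76 ± 0.16 (adjusted p = 0.00255) and GL30737-G by 0.67 ± 0.16 (adjusted p = 0.00493). GL27969-G rose by 0.43 ± 0.16 (adjusted p = 0.0494), and GL18134-G was at 0.053 ± 0.16 (adjusted p = 0.812). Of the glucan synthase genes, GL24465-G was at -0.36 ± 0.16 (adjusted p = 0.0828) and GL20535-G at -0.15 ± 0.15 (adjusted p = 0.451). This brought the calls to 6 of 9, 2 higher and 4 lower, in a fit in which 40.6% of all tested genes were called, 19.6% higher and 21.0% lower. The fit was added after seeing the data and leaves out the libraries that spread most, so its p-values can be too small.

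**Figure D4:**
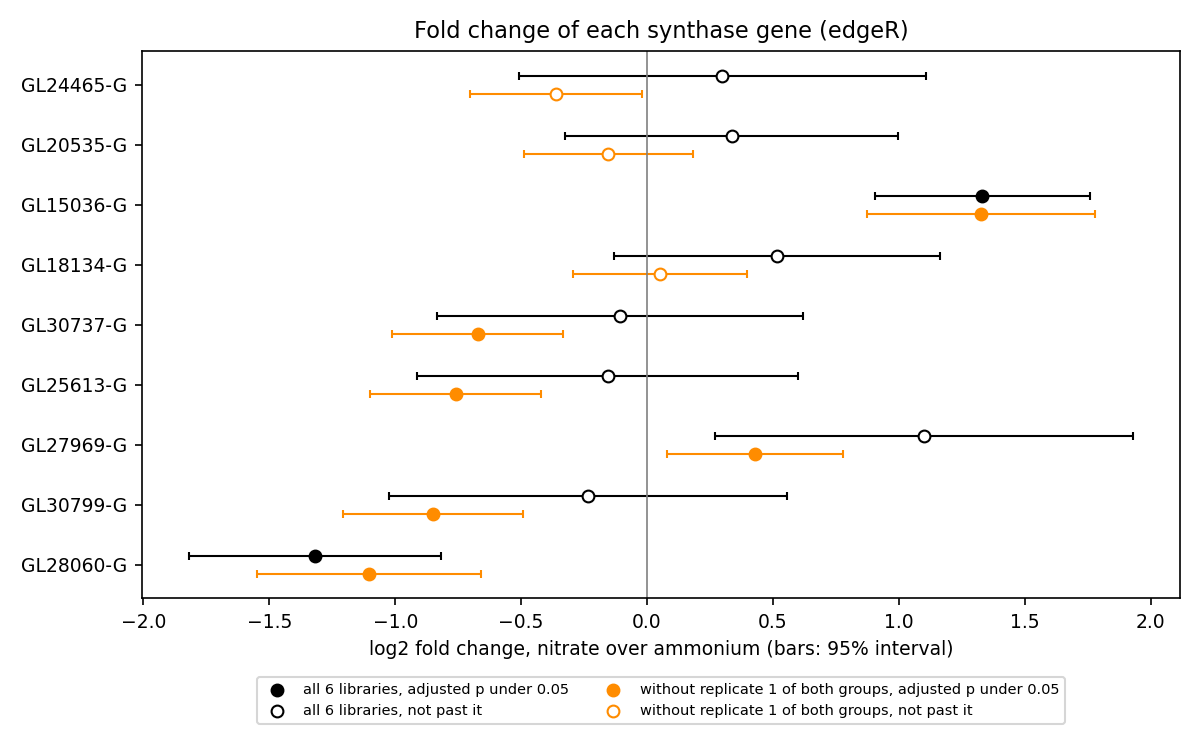
log2 fold change of nitrate over ammonium for each of the 9 genes with its 95% interval, with all 6 libraries (black) and without replicate 1 of both groups (orange), filled where the adjusted p was under 0.05. GL15036-G and GL28060-G are filled in both, and GL30737-G, GL25613-G, GL27969-G and GL30799-G are filled in orange only.

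By GO terms more genes carry chitin synthase activity than the KOG names give. Besides the 6, the term was on GL15273-G, described as a class V myosin heavy chain, and on GL31550-G and GL27380-G, described as class I myosins. All of these also carry the GO terms of the myosin complex and of motor activity, like GL25613-G and GL28060-G. GL15273-G, on scaffold 12 at 995736 to 1002792, had 299, 199 and 191 FPKM in nitrate, against 143, 186 and 190.5 FPKM in ammonium (log2 fold change 0.41 ± 0.27, adjusted p = 0.336). Nitrate replicate 1 was far above every ammonium library, and nitrate replicate 3 was level with the highest of them. GL31550-G had 90.7, 47.8 and 46.7 FPKM in nitrate, against 45.5, 70.7 and 74.4 FPKM in ammonium (adjusted p = 0.957), and GL27380-G had a count of 0 in every library. Of the 8 tested genes with the term, GL28060-G alone was called, where 15.6% of all tested genes were. Of the 5 genes with the glucan synthase terms, 2 were higher, GL15036-G and GL20577-G, where 7.50% of all tested genes were. These 2 are adjacent models, and whether they are separate genes was not tested. The call of GL20577-G held in 1 of the 6 fits without 1 library. The fifth gene with these terms, GL20774-G, a SEL-1 repeat protein, had 443, 177 and 254 FPKM in nitrate, against 143, 251 and 154 FPKM in ammonium (adjusted p = 0.288).

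Of 9 tested genes for enzymes that supply the sugar donors, 4 were higher and 1 was lower on nitrate, and the median log2 fold change was 0.58. Over all tested genes 7.50% were higher, 8.13% lower and the median was 0.010, though the list was chosen with earlier results of these data known. The list's 5 calls became 0 without nitrate replicate 3, 3 without ammonium replicate 2 and 2 without ammonium replicate 3. The amino sugar route to the chitin donor had 3 of the increases. Glucosamine 6-phosphate synthetase, GL18900-G, its entry step, had 3025, 2135 and 2670.4 FPKM in nitrate, against 1121, 1376 and 1138 FPKM in ammonium (log2 fold change 1.10 ± 0.23, adjusted p = 0.0192). Glucosamine-phosphate N-acetyltransferase, GL22204-G, which adds the acetyl group, had 971, 826 and 1171 FPKM in nitrate, against 499, 510.4 and 307 FPKM in ammonium (1.16 ± 0.25, adjusted p = 0.0210). The last enzyme, the UDP-N-acetylglucosamine pyrophosphorylase GL30088-G, which forms the donor itself, had 1047, 1038 and 1371 FPKM in nitrate, against 614, 719 and 629 FPKM in ammonium (0.80 ± 0.20, adjusted p = 0.0322).

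The groups of these 3 genes did not overlap, as in 37.0% of all tested genes, and the calls were not firm. Those of GL18900-G and GL22204-G were lost without nitrate replicate 3 or ammonium replicate 3 (highest adjusted p = 0.0883 and 0.0786). That of GL30088-G held in 1 of the 6 fits without 1 library, the one without nitrate replicate 1. The mutase of the middle step, GL30958-G, which carries the GO term of phosphoacetylglucosamine mutase, had 43.3, 109.7 and 99.7 FPKM in nitrate, against 59.3, 46.0 and 60.3 FPKM in ammonium (log2 fold change 0.58 ± 0.30, adjusted p = 0.229). It passed without nitrate replicate 1 (adjusted p = 0.0190) and without replicate 1 of both groups (0.89, adjusted p = 0.00134). For the glucan donor, UDP-glucose pyrophosphorylase, GL25739-G, rose by 1.24 ± 0.24 (adjusted p = 0.0133, lost without nitrate replicate 3 or ammonium replicate 2, highest adjusted p = 0.0635). Phosphoglucomutase, GL24280-G, the step before it, lay on the other side of 0, at 16.6, 43.9 and 26.0 FPKM in nitrate, against 51.7, 42.7 and 87.2 FPKM in ammonium. Its groups overlapped and it did not pass (-1.10 ± 0.37, adjusted p = 0.0864), though it did by DESeq2 (adjusted p = 0.0229). Leaving out nitrate replicate 2 also brought it past the threshold (adjusted p = 0.0429). Glucose-6-phosphate isomerase, GL22245-G, was lower at 31.3, 48.2 and 33.4 FPKM in nitrate, against 80.0, 77.7 and 118 FPKM in ammonium (adjusted p = 0.0121, and 0.0567 without nitrate replicate 3).

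SEL-1 repeat proteins, the family of the yeast activator of a chitin synthase, had 1 of 4 genes higher and 1 lower, where 7.50% and 8.13% of all tested genes were. GL29812-G had 312, 161 and 166 FPKM in nitrate, against 65.6, 109.6 and 75.2 FPKM in ammonium (log2 fold change 1.35 ± 0.36, adjusted p = 0.0402), and GL29593-G had 32.7, 31.6 and 33.1 FPKM in nitrate, against 48.0, 52.5 and 42.7 FPKM in ammonium (-0.57 ± 0.16, adjusted p = 0.0452). Both calls were lost in each of the 6 fits without 1 library (adjusted p = 0.0511 to 0.170).

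Chitin deacetylases convert chitin to chitosan, and 1 of the 3 genes with that GO term was lower on nitrate, where 8.13% of all tested genes were. GL29877-G had 1055, 1020.0 and 920.0 FPKM in nitrate, against 2267, 2329 and 2743 FPKM in ammonium, with narrow spread in both groups (log2 fold change -1.30 ± 0.20, adjusted p = 0.00568). Its call held in each of the 6 fits without 1 library (-1.39 to -1.22) and without replicate 1 of both groups (-1.47). The other 2, GL27817-G and GL31433-G, were at -0.29 ± 0.17 and -0.050 ± 0.20 (adjusted p = 0.278 and 0.893). Among 8 genes of other glucan synthesis, glycogen synthase, GL24971-G, was called lower (-1.04 ± 0.20, adjusted p = 0.0137, lost without nitrate replicate 3 or ammonium replicate 3) and 7 did not pass. Of all tested genes 15.6% were called, so 1 of 8 is near the background. The wording of that list also took in a glycogen synthase kinase, GL20668-G, and a glycoprotein glucosyltransferase, GL22535-G, neither of which makes glucan.

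**Figure D5:**
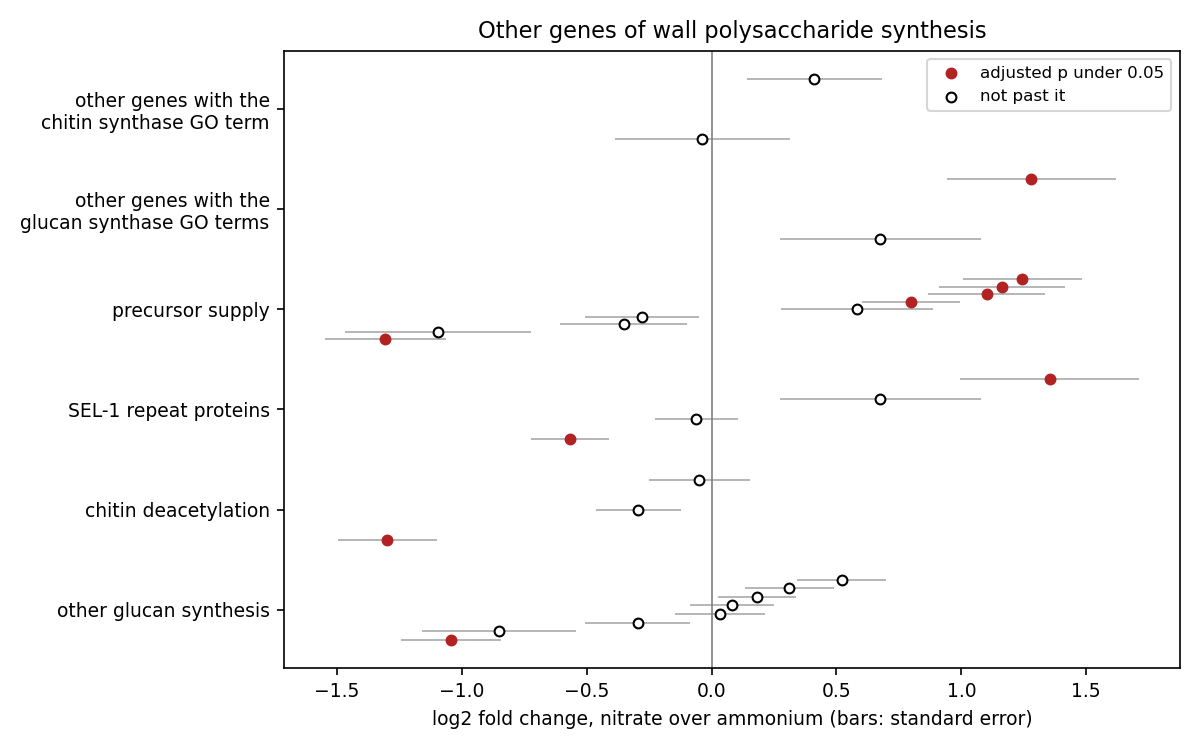
log2 fold change of nitrate over ammonium with its standard error for the tested genes of 6 lists around the synthases, without the 9 synthase genes themselves, filled where the adjusted p was under 0.05. Precursor supply holds 4 filled points above 0 and 1 below, and chitin deacetylation holds 1 filled point below 0.

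Over all 6 lists without the 9 synthases, 10 of 27 tested genes were called, 6 higher and 4 lower, where 15.6% of all tested genes were called. The lists were chosen with earlier results of these data known, so setting these shares side by side is not a test. Without nitrate replicate 3 the count was 1, the chitin deacetylase GL29877-G, and it was 5 without ammonium replicate 2 and 3 without ammonium replicate 3, while the calls of the 2 synthases held in these 3 fits. The drop ran across the whole table, since 5.79%, 6.55% and 5.41% of all tested genes were called in the same 3 fits.

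Of the genes directly beside the 9 on their scaffolds, 2 of 18 passed, a share near the background. None of the 18 directly neighbouring models overlapped a synthase model, with gaps of 197 to 2739 bases, and both called ones were higher, where 15.6% of all tested genes were called. Groups did not overlap in 7 of the 18, where 37.0% of all tested genes had no overlap. The called neighbours were GL20577-G, beside GL15036-G and higher like it, and a pantothenate kinase, GL30357-G, beside GL30737-G, at 252, 215 and 261 FPKM in nitrate, against 153, 160.4 and 123 FPKM in ammonium (adjusted p = 0.0388, lost in each of the 6 fits without 1 library). Among described genes, the levels most like those of GL15036-G across the 6 libraries were a TRAPP transport particle subunit, GL20003-G, an ankyrin protein, GL23256-G, and a cholinesterase-type gene, GL23527-G (Pearson r of log2(FPKM + 0.1) 0.998 each). For GL28060-G they were a flavonol reductase family gene, GL16520-G, a phenylalanyl-tRNA synthetase, GL17358-G, and a component of a vacuolar transporter, GL24149-G (0.999, 0.998 and 0.998). With 6 libraries in 2 groups such values can follow mainly the group difference. Around the group means r was 0.948, 0.978 and 0.970 for the genes like GL15036-G, in the same order. For those like GL28060-G it was 0.994, 0.987 and 0.996. The genes were picked by their r, so all these values are given as a description.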

How the data were processed

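The authors deposited 1 table with raw counts per gene for each of 6 libraries, plus TPM and FPKM columns of the authors' making, per the file headers. Libraries were made from isolated mRNA for the Illumina platform, per the labels' protocols. The sources used here do not give the aligner, counter, genome build or use of strand. Counts were tested, FPKM gave levels, and TPM were not used. Samples were grouped by title.

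The test was edgeR 4.0.16 (R 4.3.3), quasi-likelihood, TMM, filterByExpr, robust, with no block. The threshold was 0.05 on Benjamini-Hochberg adjusted p. The standard error came from the F statistic. Tested genes held 99.98% of counts. Alternatives were RLE factors, other count filters, DESeq2 1.42.0, limma 3.58.1 on log2(FPKM + 1) and log2(FPKM + 0.1) for genes of at least 1 FPKM in 3 libraries, the replicate block and each library left out. Steps were tested on simulated data. A count of 3, the limit a count of 0 allows, is 0.109 to 0.150 CPM, for counting error only.

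Members and lists were chosen with earlier results of these data known. Genes named were all members, up to 3 called genes per list and direction, direct neighbours, and the 3 described genes of highest Pearson r with each called member. Genes outside it (the fourth call of the precursor supply list, and list genes that did not pass) were chosen after their values were seen. One list is not reported here. Sequences are not shown.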

Additional observations from a re-analysis of the deposited data

How the results depend on the processing

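The calls of GL15036-G (higher) and GL28060-G (lower) held under RLE factors, both other filters, DESeq2, both limma fits and without any 1 library. The count of synthases called was 2 in each of these fits except DESeq2, where it was 3. DESeq2 called GL27969-G as well, and 6 passed without replicate 1 of both groups. With the replicate number as a block, 0 of 9 synthases passed (2 at an unadjusted p under 0.05, with adjusted p = 0.0675 for GL15036-G and 0.0857 for GL28060-G) and 0 of 27 list genes (11 unadjusted). The count over all genes was then 225 against 1874. The main fit had no block, and the block was set as an alternative to it. Same-numbered libraries deviated in opposite directions from their group means (correlations -0.68, -0.38 and -0.49). These values also carry the 1 axis within groups described above, so they do not settle whether the numbers mark pairs. Without 1 library the count over all genes was 655 to 1946, and that of the lists 1 to 9. Without replicate 1 of both groups these were 4898 and 16. Directions turned in genes that did not pass. Over the fits without 1 library, GL20535-G ranged from -0.013 to 0.50 and GL24465-G from -0.17 to 0.50, both negative without nitrate replicate 1 alone and, at -0.15 and -0.36, without replicate 1 of both groups. GL25613-G was at 0.047 without nitrate replicate 3, against -0.76 without replicate 1 of both groups. GL30737-G was at 0.070 without nitrate replicate 3, 0.014 without ammonium replicate 2 and 4.8e-05 without nitrate replicate 2, against -0.67 without replicate 1 of both groups. The cause was not tested, nor was any part that depth has in it. GL28060-G rests on 88 to 351 counts a library.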
